A study of Homo sapiens with 12 samples.

Results

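The HLA class I antigen presentation genes described here are HLA-B, HLA-C, HLA-E, HLA-F, B2M, TAP1, TAP2, PSMB8 and PSMB9. They were taken by symbol from 2 deposited gene tables of MCF10A, an immortalized human breast epithelial line that does not form tumours, and are 9 of the 26022 gene IDs above 0 in at least 1 group of libraries. B2M had a single ID in the tables, and each of the other symbols had 1 ID above 0 beside IDs listed at 0. A class I molecule is a heavy chain paired with beta-2-microglobulin, the product of B2M, and it shows a short peptide from inside the cell on the cell surface. HLA-B and HLA-C are classical heavy chains read by T cells and by natural killer cells, while HLA-E and HLA-F are nonclassical chains, of which HLA-E is the ligand of the inhibitory receptor CD94/NKG2A. Peptides are cut by the proteasome, in which the interferon-inducible subunits PSMB8 (LMP7) and PSMB9 (LMP2) can replace constitutive ones. TAP1 and TAP2 form the transporter that carries peptides into the endoplasmic reticulum, where the heavy chains are loaded.

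RNA was sequenced in 12 libraries, 3 for each of 4 cell lines. The wild-type vector group had intact p53 and the empty pBabepuro vector, and the wild-type H-Ras group had intact p53 and H-RasV12, an active H-Ras mutant, stably expressed from a retrovirus. In the p53-deleted pair, vector and H-Ras, the same constructs were in cells with p53 deleted at exon 2. Each H-Ras line had as its control the 1 vector line made alongside it, so the effect of H-Ras and any other difference between the paired lines cannot be told apart, and neither can p53 status and the pair. All groups grew in medium with horse serum and received no further treatment, and whether a line was a clone or a pool was not given in the labels.

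The tables give group means of normalized counts, and the whole reads of the single libraries were solved from those means. Within each group the library with the largest size factor is called A, the next B and the smallest C, with no link to replicate numbers. Estimated totals were 7845464 to 10079182 reads per library. In the wild-type background 2 libraries, vector A and H-Ras C, differed most from their groups, with chi-square per degree of freedom of 24.2 to 29.5 against the other libraries of their groups, where the remaining pairs gave 4.24 and 2.54. Pairs of the p53-deleted groups gave 2.28 to 12.1. HRAS was at 859.9 ± 125 normalized counts (SD, n = 3, as for all levels below) in the p53 wild-type vector group and 16949 ± 1903 with H-Ras, and at 839.7 ± 42.8 and 17779 ± 1140.2 in the p53-deleted groups.

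The labelled cell type was checked against markers. Of 7 mammary epithelial markers, 6 were lower with H-Ras in the wild-type background and all 6 that were tested were lower in the p53-deleted background. Of all genes tested, 12.7% and 28.3% were called lower there. TP63 in both backgrounds and KRT14 in the p53-deleted one were under 10 in every H-Ras library. They passed the filter of at least 10 in at least 3 libraries only through the vector libraries, so their direction was set by it. CDH1 in the wild-type background was above 10 in H-Ras A alone of the H-Ras libraries. Without KRT5, whose reads were not solved in the p53-deleted vector group, the summed level per library was 14099 to 15256 normalized counts with vector and 7035 to 7709 with H-Ras in the wild-type lines, and 15918 to 17202 and 4695 to 5230.4 in the p53-deleted lines. The authors' means of KRT5 were 34616, 5245, 45144 and 3239 in the same order of groups. Of 10 leukocyte markers, PTPRC, CD3E and TYROBP were among those at 0 in every library, and the list summed to 519 to 1289, 559 to 1436, 233 to 362 and 779 to 941 in that order. Of these, LAPTM5 went from 62.7 ± 20.6 to 687 ± 267 and from 25.1 ± 7.10 to 534 ± 48.7, CD14 from 428 ± 324 to 381 ± 209 and from 76.9 ± 27.0 to 282 ± 82.9, and ITGB2 from 253 ± 86.4 to 41.6 ± 12.4 and from 148 ± 53.3 to 22.9 ± 4.06. COL1A2 and COL3A1 were at 0 in every library, and the 6 fibroblast markers summed to 204 to 309, 2311 to 3595, 94.7 to 139 and 345 to 689.6. Most of that level with H-Ras was DCN, at 157 ± 78.1 and 2990.4 ± 655, then 11.2 ± 2.61 and 506 ± 191, while COL1A1 was at 108 ± 28.7 and 36.5 ± 10.8, then 109.6 ± 25.5 and 59.0 ± 6.53. The 6 endothelial markers, with PECAM1 at 0 throughout, summed to 167 to 202, 657 to 837, 79.2 to 110.1 and 557 to 617, most of it ROBO4 and KDR. The part of these shifts in the values of the class I genes was not tested. In bulk RNA, fewer cells that express a gene and less RNA per cell cannot be told apart.

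B2M lies at chr15:44711487-44718877 on GRCh38 (GENCODE 29), and the other 8 genes lie in the major histocompatibility complex on the short arm of chromosome 6. HLA-B (chr6:31269491-31357188) and HLA-C (chr6:31268749-31272130) are on the minus strand, and HLA-E (chr6:30489467-30494205) and HLA-F (chr6:29722775-29738528) on the plus strand. TAP2 (chr6:32821833-32838780), PSMB8 (chr6:32840717-32844703) and TAP1 (chr6:32845209-32853978) are on the minus strand, and PSMB9 (chr6:32844136-32859585) is on the plus strand. The annotated span of PSMB9 holds that of TAP1 and overlaps part of that of PSMB8, while TAP2 lies outside it. The 250 bases before the RefSeq start of 7 members (GRCh38.p14, strand of the gene, 5′ to 3′) are printed so that the 4 genes called lower with H-Ras in the wild-type background, TAP1, TAP2, PSMB8 and PSMB9, can be set beside B2M, HLA-B and HLA-C. Capitals mark matches, on either strand, to the interferon-stimulated response element (GAAA, any 2 bases, GAAA), the STAT site GAS (TTC, any 3 bases, GAA), the NF-kappaB site (GGG, any 2 bases, then TTTCC or TTCCC) and the core of the cAMP response element (TGACGT).
B2M, chr15:44711267-44711516, plus strand: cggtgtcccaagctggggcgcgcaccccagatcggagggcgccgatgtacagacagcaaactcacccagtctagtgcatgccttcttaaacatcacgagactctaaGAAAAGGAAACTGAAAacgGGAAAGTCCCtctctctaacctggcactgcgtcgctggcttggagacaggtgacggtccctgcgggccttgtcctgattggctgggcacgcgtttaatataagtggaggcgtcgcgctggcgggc
HLA-B, chr6:31357180-31357429, minus strand: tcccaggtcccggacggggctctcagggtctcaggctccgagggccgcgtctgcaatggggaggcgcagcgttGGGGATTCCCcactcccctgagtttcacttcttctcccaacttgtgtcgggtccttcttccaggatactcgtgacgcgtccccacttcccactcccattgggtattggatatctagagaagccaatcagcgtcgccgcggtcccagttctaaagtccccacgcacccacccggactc
HLA-C, chr6:31272093-31272342, minus strand: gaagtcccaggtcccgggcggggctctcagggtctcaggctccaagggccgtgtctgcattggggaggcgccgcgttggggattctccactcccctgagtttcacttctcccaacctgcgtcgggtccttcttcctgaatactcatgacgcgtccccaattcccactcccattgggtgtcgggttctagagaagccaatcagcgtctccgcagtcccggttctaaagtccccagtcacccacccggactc
TAP1, chr6:32853705-32853954, minus strand: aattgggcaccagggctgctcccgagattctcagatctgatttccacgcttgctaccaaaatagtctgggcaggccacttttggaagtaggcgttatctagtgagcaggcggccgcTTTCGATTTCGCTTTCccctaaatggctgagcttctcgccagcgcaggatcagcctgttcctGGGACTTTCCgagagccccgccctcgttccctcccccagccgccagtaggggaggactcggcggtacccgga
TAP2, chr6:32838740-32838989, minus strand: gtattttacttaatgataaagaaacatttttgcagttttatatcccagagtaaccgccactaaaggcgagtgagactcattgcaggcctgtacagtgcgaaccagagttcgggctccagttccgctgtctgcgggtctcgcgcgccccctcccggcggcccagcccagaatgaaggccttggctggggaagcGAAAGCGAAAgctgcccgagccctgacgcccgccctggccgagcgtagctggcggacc
PSMB8, chr6:32844680-32844929, minus strand: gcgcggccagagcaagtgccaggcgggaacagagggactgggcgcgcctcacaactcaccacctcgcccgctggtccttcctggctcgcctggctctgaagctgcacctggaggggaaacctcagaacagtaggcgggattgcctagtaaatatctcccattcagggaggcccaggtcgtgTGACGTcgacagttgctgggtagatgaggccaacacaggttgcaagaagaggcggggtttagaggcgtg
PSMB9, chr6:32853942-32854191, plus strand: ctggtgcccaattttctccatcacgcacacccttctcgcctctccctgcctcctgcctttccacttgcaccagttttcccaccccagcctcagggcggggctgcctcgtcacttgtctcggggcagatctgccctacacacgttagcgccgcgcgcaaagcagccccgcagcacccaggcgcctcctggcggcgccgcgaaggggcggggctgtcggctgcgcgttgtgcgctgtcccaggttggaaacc
The B2M and TAP1 windows each held 2 overlapping response elements and 1 NF-kappaB site. TAP2 held 1 response element, beginning 58 bases before its start, HLA-B held 1 NF-kappaB site, PSMB8 held 1 cAMP response core, and HLA-C and PSMB9 held no match to these 4 motifs. The windows of TAP1 and PSMB9, which are transcribed away from each other from these starts, share their outermost bases. Of 34943 RefSeq windows of this length, 3.02% held the response element, 6.56% the STAT site, 3.51% the NF-kappaB site and 7.09% the cAMP response core. TAP1 and PSMB8 have a further RefSeq start each, whose window held a STAT site and none of the other 3 motifs. The window of HLA-F, not printed, held 1 response element. Matches and their absence describe these letters only.

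B2M was the most abundant of the 9 genes per length and HLA-F the least. Per kilobase of principal transcript, on the scale common to the 12 libraries, the group means of B2M were 3585 to 5764 normalized counts. HLA-C followed with 1291 to 1519, then HLA-E with 529.9 to 852 and HLA-B with 348 to 633. PSMB8 was at 259 to 507 per kilobase, TAP1 at 128 to 212, TAP2 at 73.4 to 157 and PSMB9 at 66.8 to 241. HLA-F, at 27.3 to 50.8, was the lowest in each group. The ranges of HLA-E and HLA-B overlapped, as did those of HLA-B and PSMB8 and those of TAP1, TAP2 and PSMB9. In the wild-type vector group PSMB8 (507 per kilobase) was above HLA-B (348).

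**Figure D1:**
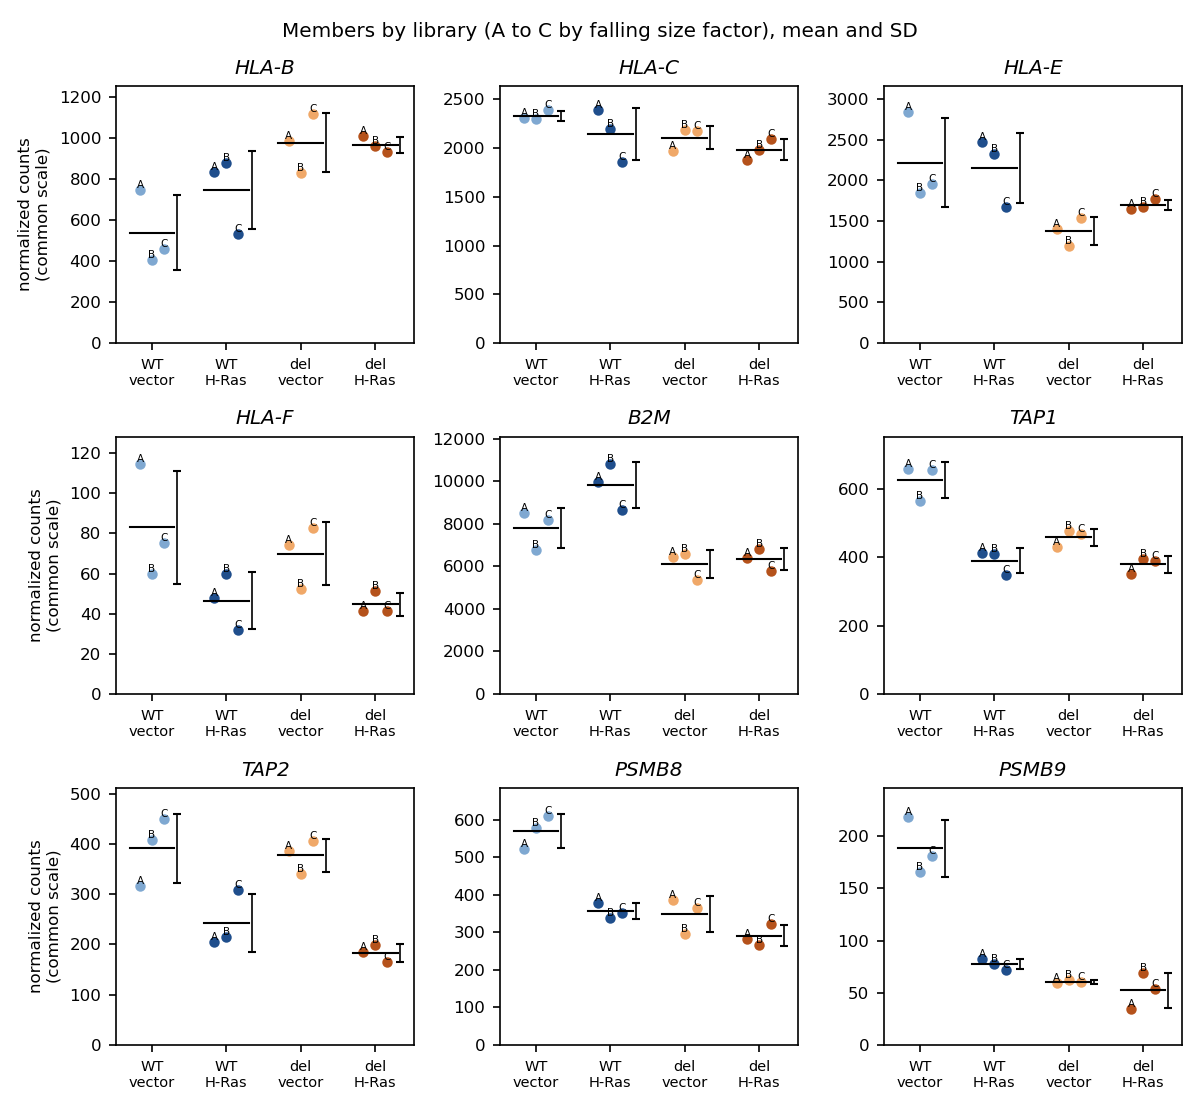
Normalized counts of the 9 genes on the scale common to the 12 libraries (vertical axes, linear from 0), one point per library with its letter, for the p53 wild-type (WT) and p53-deleted (del) vector and H-Ras groups. Horizontal lines are means and error bars SD over 3 libraries. PSMB9 was highest in the WT vector libraries (166 to 219) and at most 82.1 in the others, and in HLA-B and HLA-E the WT vector A library lay above B and C while WT H-Ras C lay below A and B.

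The comparison of H-Ras with vector in the p53 wild-type background asked which of these genes differed in cells with intact p53. The transporter and the immunoproteasome subunits were lower with H-Ras: PSMB9, PSMB8, TAP1 and TAP2 fell, and none of the 9 rose. The 4 heavy chains and B2M did not pass the test. The 4 calls among 9 members, all lower, stand beside 12.7% of 12454 genes called lower, 13.0% called higher and 25.7% called in either direction. The median log2 fold change of the 9 was -0.69, against -0.02 over all genes tested. Calls are at a Benjamini-Hochberg adjusted p under 0.05 from limma, fold changes are on the log2(normalized count + 1) scale with their SE, and, as separate cultures are not stated for the replicates, each p-value reflects only how much these libraries spread, which may be technical.

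PSMB9, the LMP2 subunit, was at 208, 158 and 172 normalized counts in vector libraries A, B and C and at 77.3, 72.6 and 68.7 in H-Ras libraries A, B and C. Every vector library was above every H-Ras library by more than the whole range of the H-Ras group. PSMB9 fell 2.43-fold (log2 fold change -1.28 ± 0.16, adjusted p = 0.0011). PSMB8, the LMP7 subunit, gave 495, 552 and 583 with vector and 357, 317 and 334 with H-Ras. Its groups did not overlap, and its log2 fold change was -0.69 ± 0.11, adjusted p = 0.0041.

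TAP1, which binds ATP and carries part of the peptide site of the transporter, was at 626, 538 and 626 with vector and at 389.5, 385 and 332 with H-Ras. Again the groups did not overlap, and TAP1 was lower with H-Ras (log2 fold change -0.69 ± 0.12, adjusted p = 0.0054). TAP2, its partner, was at 301, 389 and 428 with vector and at 194, 202 and 294 with H-Ras. Vector A was the lowest vector library and H-Ras C the highest H-Ras library, and they came within a few counts of each other without crossing. The fall of TAP2 was called (log2 fold change -0.70 ± 0.21, adjusted p = 0.044), but the adjusted p was 0.15 when H-Ras A, H-Ras B, vector B or vector C was left out (1.3e-06 to 0.15 over 14 alternatives). In the authors' deposited table, the fold changes of PSMB9, PSMB8 and TAP1 were 0.407, 0.619 and 0.618 with adjusted p of 4.9e-05, 0.049 and 0.041, and TAP2, at 0.617, had an adjusted p of 0.059. Of all genes with an adjusted p in that table, 9.32% were under 0.05.

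Among the chains, HLA-B gave 712, 389 and 438 normalized counts with vector and 788, 825 and 504 with H-Ras. Vector A lay inside the range of the H-Ras libraries and H-Ras C nearer to vector B and C than to H-Ras A and B, and the log2 fold change of 0.48 ± 0.27 did not pass (adjusted p = 0.24). HLA-C gave 2192, 2193 and 2281 with vector and 2247, 2059 and 1762 with H-Ras. The groups overlapped, and the log2 fold change was -0.14 ± 0.11 (adjusted p = 0.38, 95% interval -0.40 to 0.12). HLA-E gave 2699, 1763 and 1867 with vector and 2323, 2188 and 1585 with H-Ras. Here these libraries were again the extremes, vector A the highest of the 6 and H-Ras C the lowest, and the log2 fold change was -0.05 ± 0.21 (adjusted p = 0.89). HLA-F gave 109, 56.9 and 71.6 with vector and 44.9, 56.4 and 30.3 with H-Ras. The lowest vector library was within a count of the highest H-Ras library, and its log2 fold change of -0.83 ± 0.32 did not pass (adjusted p = 0.097). B2M was at 8091, 6445 and 7807 with vector and at 9383, 10191 and 8254 with H-Ras. All H-Ras libraries were above all vector libraries, yet the log2 fold change of 0.32 ± 0.13 missed the threshold (adjusted p = 0.12).

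Without vector A and H-Ras C, which earlier results on these files had shown to stand apart, 7 of the 9 members were called, 3 higher and 4 lower, where 57.9% of 11755 genes were called. These libraries were picked for their distance from their groups in the same reads. Leaving them out narrows the spread, so p-values without them, here and below, may be too small. HLA-B was then called higher (log2 fold change 0.96 ± 0.09, adjusted p = 5.2e-07), as were B2M (0.46 ± 0.09, adjusted p = 0.0004) and HLA-E (0.31 ± 0.08, adjusted p = 0.0024). In all of these genes vector A was the highest vector library and H-Ras C the lowest H-Ras library, so leaving them out raised the fold change. The value of HLA-E has the opposite sign to the one over 6 libraries. Over 14 alternatives the adjusted p ran from 5.2e-07 to 0.55 for HLA-B, from 0.0004 to 0.35 for B2M and from 0.0024 to 0.9 for HLA-E. TAP2 fell by more than before (-1.04 ± 0.11, adjusted p = 1.3e-06), and PSMB9 (-1.13 ± 0.16, adjusted p = 2e-05), PSMB8 (-0.75 ± 0.10, adjusted p = 1.4e-05) and TAP1 (-0.58 ± 0.10, adjusted p = 0.00016) fell by amounts close to those over 6 libraries. HLA-C (-0.06 ± 0.08, adjusted p = 0.55) and HLA-F (-0.34 ± 0.22, adjusted p = 0.21) did not pass.

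**Figure D2:**
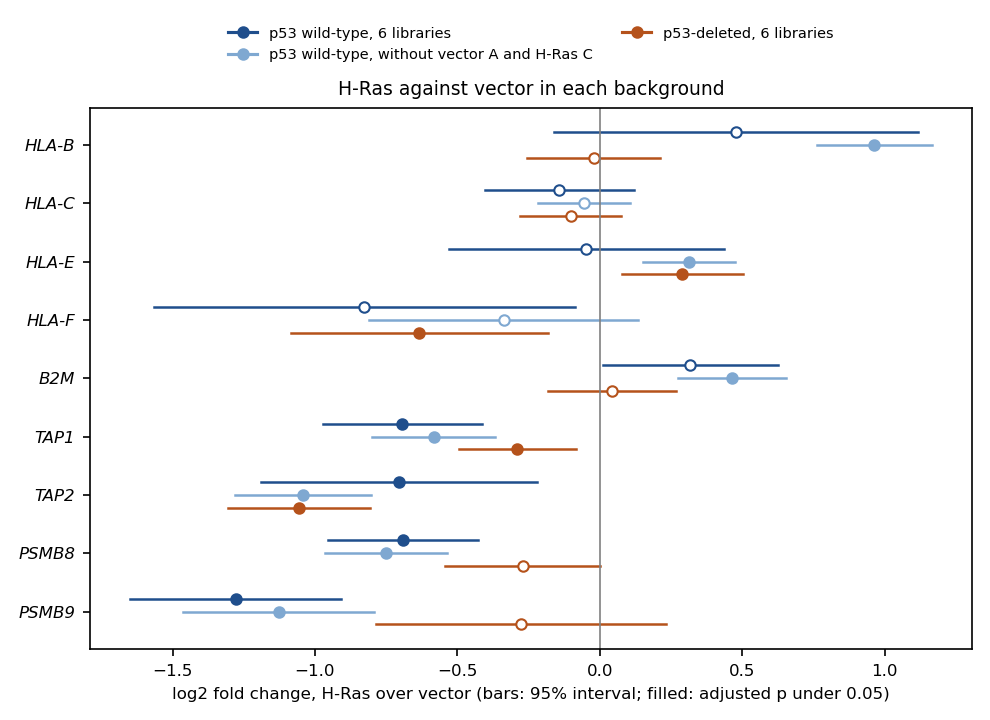
Log2 fold change of H-Ras over vector for the 9 genes (horizontal axis, on log2(normalized count + 1)) with 95% intervals, in the p53 wild-type background with 6 libraries or with 4 (vector A and H-Ras C left out), and in the p53-deleted background. Filled points had an adjusted p under 0.05 in limma. TAP1 and TAP2 were filled and below 0 in all 3 fits, PSMB8 and PSMB9 in both wild-type fits, and HLA-C was open in all 3.

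In the p53-deleted background, the transporter genes and HLA-F fell with H-Ras and HLA-E rose. The 3 members called lower and the 1 called higher stand beside 28.3% of 12766 genes called lower and 27.8% called higher, so 4 of 9 was no more than the 56.1% of all genes called. The median log2 fold change of the 9 was -0.27, against 0.01 over all genes tested. PSMB8, PSMB9, HLA-B, HLA-C and B2M did not pass.

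TAP2 was at 412, 363 and 431 normalized counts in p53-deleted vector libraries A, B and C and at 195, 210.0 and 174 in the H-Ras libraries. The groups were far apart relative to their spread, and TAP2 fell 2.08-fold (log2 fold change -1.06 ± 0.11, adjusted p = 1.3e-05), the largest change of any member in this background. TAP1 gave 459, 508 and 497 with vector and 369.6, 417 and 411 with H-Ras, a fall without overlap (log2 fold change -0.29 ± 0.09, adjusted p = 0.02). Leaving out vector B or H-Ras A ended that call (adjusted p = 0.053 and 0.074, 0.019 to 0.074 over 13 alternatives). HLA-F was at 79.2, 55.7 and 88.1 with vector and 43.8, 53.8 and 43.3 with H-Ras, and again the groups stayed apart by a narrow margin. It fell by 0.63 ± 0.20 on the log2 scale (adjusted p = 0.021), a call that ended without vector A, vector C, H-Ras A or H-Ras C (adjusted p of 0.054 to 0.079, 0.0035 to 0.091 over 13 alternatives). The call of HLA-F was also lost in the fit on all 12 libraries.

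HLA-E was at 1495, 1272 and 1634 with vector and at 1736, 1759 and 1862 with H-Ras. The H-Ras libraries were all above the vector libraries, and HLA-E rose by 0.29 ± 0.10 on the log2 scale (adjusted p = 0.024). Its call ended without vector A, vector B, H-Ras B or H-Ras C (adjusted p of 0.0502 to 0.091, 0.0051 to 0.17 over 13 alternatives). The call of HLA-E also ended in the fit on all 12 libraries. HLA-B gave 1049, 885 and 1192 with vector and 1066, 1012 and 982 with H-Ras, inside one another's range, with a log2 fold change of -0.02 ± 0.11 (adjusted p = 0.88). HLA-C, at 2242 ± 128 and 2088 ± 112, differed by -0.10 ± 0.08 (adjusted p = 0.3), and B2M, at 6506 ± 717 and 6684 ± 542, by 0.04 ± 0.10 (adjusted p = 0.75). The 95% interval for B2M, -0.18 to 0.27, covers 0 and overlaps the wild-type one, 0.01 to 0.62.

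The proteasome subunits did not pass in the p53-deleted lines. PSMB8 was at 412, 314 and 388 with vector and at 299, 281 and 339 with H-Ras, overlapping ranges with a log2 fold change of -0.27 ± 0.12 (adjusted p = 0.084). It was called lower without vector B, its lowest vector library (adjusted p = 0.014, 0.014 to 0.28 over 13 alternatives). PSMB9 was at 62.8, 66.4 and 64.0 with vector, a tight group, and at 36.3, 72.0 and 56.7 with H-Ras, on both sides of it. Its log2 fold change was -0.28 ± 0.23 (adjusted p = 0.33). In the authors' deposited table, TAP2 (fold change 0.480, adjusted p = 1.5e-11) and HLA-F (0.632, adjusted p = 0.034) were under 0.05 in this background, and TAP1 (0.818, adjusted p = 0.11) and HLA-E (1.22, adjusted p = 0.064) were not, beside 26.1% of genes under 0.05.

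Whether H-Ras had unequal effects in the 2 backgrounds was tested as an interaction over the 12 libraries. PSMB9 alone of the 9 members passed, beside 17.0% of 13206 genes called and 9.19% called higher: its log2 fold change was 1.01 ± 0.30 higher in the p53-deleted lines (adjusted p = 0.04). The vector lines were farther apart, at 188 ± 27.3 normalized counts on the common scale in the wild-type and 60.5 ± 1.72 in the p53-deleted line, than the H-Ras lines, at 77.2 ± 4.92 and 52.3 ± 17.1. The call ended in 12 of 19 alternative settings, over which the adjusted p ran from 0.0056 to 0.09. TAP1 (0.41 ± 0.15, adjusted p = 0.08) and PSMB8 (0.42 ± 0.17, adjusted p = 0.11) had values of the same sign without passing. For TAP2 the difference was -0.35 ± 0.24, adjusted p = 0.35, for HLA-B -0.49 ± 0.32, adjusted p = 0.31 and for B2M -0.27 ± 0.17, adjusted p = 0.31. Without wild-type vector A and H-Ras C the difference for HLA-B was -0.99 (adjusted p = 0.00071, 0.00071 to 0.53 over 19 alternatives), where 22.4% of genes were called.

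The vector lines themselves differed in these genes. With vector and without H-Ras, the p53-deleted line had less PSMB9, PSMB8, HLA-E, TAP1 and B2M and more HLA-B than the wild-type line. The 5 members called lower and 1 called higher stand beside 16.8% and 16.2% of 13206 genes, 33.0% in all. PSMB9 was 3.06-fold lower in the p53-deleted vector line (log2 difference -1.61 ± 0.22, adjusted p = 9.6e-05), the largest difference of the 9. PSMB8 went from 570.3 ± 45.4 to 349 ± 48.2 normalized counts on the common scale (-0.71 ± 0.12, adjusted p = 0.00064), and TAP1 from 627 ± 53.8 to 458 ± 24.1 (-0.45 ± 0.11, adjusted p = 0.0055). HLA-B was at 539 ± 184 in the wild-type and 979 ± 145 in the p53-deleted vector line, 1.87-fold higher (0.90 ± 0.22, adjusted p = 0.0076), while HLA-E was lower (-0.67 ± 0.17, adjusted p = 0.01). The B2M difference (-0.35 ± 0.12, adjusted p = 0.043) was lost in 10 of 19 alternatives. TAP2 (-0.04 ± 0.17, adjusted p = 0.89), HLA-C (-0.15 ± 0.10, adjusted p = 0.28) and HLA-F (-0.22 ± 0.28, adjusted p = 0.6) did not pass.

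Between the H-Ras lines, 2 members were called, both lower in the p53-deleted line, beside 18.2% of genes called lower and 37.3% called in all. B2M was at 9828 ± 1087 on the common scale in the wild-type and 6349 ± 516 in the p53-deleted H-Ras line (log2 difference -0.63 ± 0.12, adjusted p = 0.0015). PSMB9 had a log2 difference of -0.61 ± 0.22, adjusted p = 0.042, a call lost in 12 of 19 alternatives. In the order of the 4 group means on the common scale, PSMB9, PSMB8, TAP1, TAP2, HLA-F, HLA-C and HLA-E were all highest in the wild-type vector line, and B2M was highest in the wild-type H-Ras line and HLA-B in the p53-deleted vector line. For TAP2 and HLA-C that order depends on the scale: the authors' means, scaled separately per background, were 402 and 2242 in the p53-deleted and 373 and 2222 in the wild-type vector line. The log2 difference of TAP2 between vector lines ran from -0.18 to 0.07 over 19 alternatives. For HLA-E the wild-type vector and H-Ras means (2216 ± 545 and 2153 ± 427) did not differ beyond their spread. The lead of the vector group rested on library A, at 2841 against 1848 and 1958 in B and C. For HLA-F, the log2 difference between vector lines changed sign without wild-type vector A (0.035). For PSMB9, TAP1 and PSMB8 the wild-type vector mean was above the next group by more than the SDs of both, while TAP1 in the 2 H-Ras lines (391 ± 36.4 and 379 ± 25.2) and HLA-B in the p53-deleted lines (979 ± 145 and 969 ± 38.6) did not differ beyond their spread. The vector and H-Ras comparisons share their libraries with the comparisons within each background, so these orders are not separate evidence.

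The immunoproteasome forms when PSMB8, PSMB9 and PSMB10 take the places of PSMB5, PSMB6 and PSMB7. PSMB10, the third inducible subunit (MECL1), fell with H-Ras in both backgrounds, from 116 ± 5.30 to 55.5 ± 4.38 normalized counts in the wild-type lines (log2 fold change -1.05 ± 0.15, adjusted p = 0.0024) and from 68.9 ± 10.1 to 28.7 ± 3.30 in the p53-deleted lines (-1.23 ± 0.19, adjusted p = 0.00026). Of the 3 constitutive subunits, none was called in the wild-type background: PSMB5 had a log2 fold change of -0.06 ± 0.13, adjusted p = 0.78, PSMB6 of -0.13 ± 0.11, adjusted p = 0.43 and PSMB7 of 0.18 ± 0.10, adjusted p = 0.21. In the p53-deleted background PSMB7 rose (0.28 ± 0.08, adjusted p = 0.0092), while PSMB5 (0.12 ± 0.08, adjusted p = 0.22) and PSMB6 (-0.21 ± 0.09, adjusted p = 0.064) did not pass. Of the other inducible parts, PSME1 and PSME2, the PA28 activator, fell in the wild-type background (-0.62 ± 0.14, adjusted p = 0.018 and -0.50 ± 0.11, adjusted p = 0.017) and did not pass in the p53-deleted one (-0.10 ± 0.08, adjusted p = 0.34 and -0.16 ± 0.13, adjusted p = 0.3). POMP, the assembly factor, did not pass in either (0.47 ± 0.15, adjusted p = 0.058 and -0.11 ± 0.12, adjusted p = 0.47). Without wild-type vector A and H-Ras C, PSMB10, PSME1 and PSME2 were called lower and POMP higher (0.29 ± 0.08, adjusted p = 0.0073), and of the constitutive subunits PSMB7 was called higher (0.25 ± 0.08, adjusted p = 0.011). These calls stand beside 25.7% of all genes called in the wild-type background, 56.1% in the p53-deleted one and 57.9% in the fit without these libraries.

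Within a library, the ratio of PSMB9 to PSMB6 reads was 0.323, 0.214 and 0.225 in the wild-type vector libraries and 0.111, 0.120 and 0.104 with H-Ras. It was 0.0963, 0.0872 and 0.0976 in the p53-deleted vector libraries and 0.0607, 0.123 and 0.0942 with H-Ras. The wild-type vector libraries were thus the only ones above 0.2, and the p53-deleted H-Ras libraries spanned the values of the other 2 groups. For PSMB8 to PSMB5 the mean was 0.575 ± 0.0393 and 0.369 ± 0.00805 in the wild-type vector and H-Ras groups and 0.410 ± 0.0460 and 0.313 ± 0.0288 in the p53-deleted ones. For PSMB10 to PSMB7 the values were 0.0595 ± 0.00327 and 0.0251 ± 0.00293, then 0.0409 ± 0.00609 and 0.0140 ± 0.00121, and neither of these 2 ratios overlapped between vector and H-Ras in either background. These ratios are not corrected for transcript length, and a ratio shows unequal change and not which subunit changed.

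**Figure D3:**
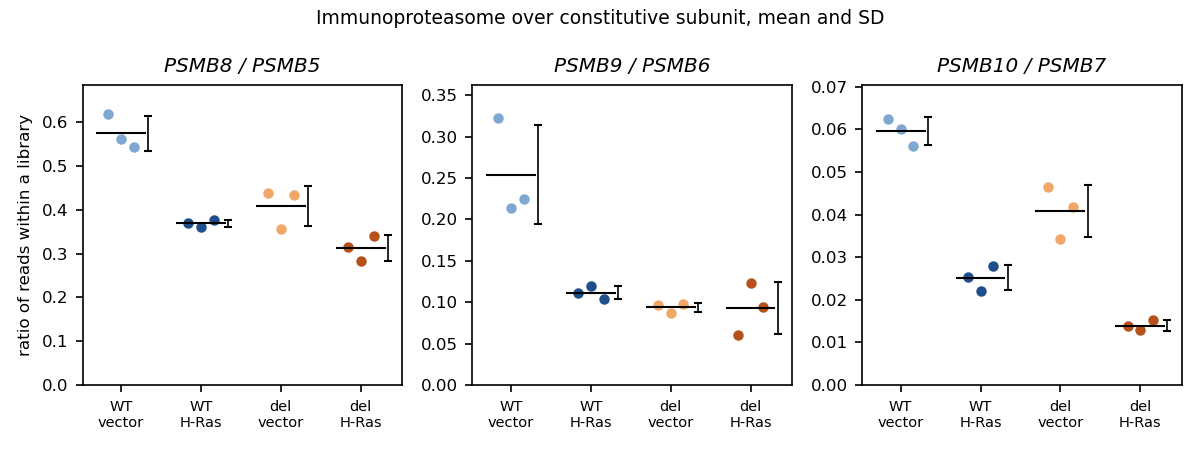
Ratio of reads of an inducible to the matching constitutive proteasome subunit within each library (vertical axes, linear from 0), for the p53 wild-type (WT) and p53-deleted (del) vector and H-Ras groups; lines are means and error bars SD over 3 libraries. All 3 ratios were highest in the WT vector libraries, and PSMB8 to PSMB5 and PSMB10 to PSMB7 were also lower with H-Ras, without overlap, in the p53-deleted background.

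The rest of the presentation pathway moved in both directions. The class I chain HLA-G gave 1 read in 12 libraries. Of 8 genes of peptide loading and trimming, 1 rose and 1 fell in the wild-type background: the chaperone HSPA5 (0.65 ± 0.17, adjusted p = 0.028) and the tapasin-related editor TAPBPL (-1.27 ± 0.36, adjusted p = 0.04). In the p53-deleted background 2 rose and 3 fell. Tapasin itself, TAPBP, rose from 844 ± 72.6 to 1410.2 ± 36.6 (0.74 ± 0.09, adjusted p = 2.2e-05), and so did calnexin, CANX (0.41 ± 0.09, adjusted p = 0.0026). TAPBPL (-1.27 ± 0.22, adjusted p = 0.00052) fell along with the trimming peptidases ERAP1 (-0.53 ± 0.12, adjusted p = 0.0034) and ERAP2 (-0.79 ± 0.22, adjusted p = 0.0099). The effects on TAPBP differed between backgrounds (0.80 ± 0.21, adjusted p = 0.024). CALR and PDIA3, calreticulin and ERp57, did not pass in either background, with log2 fold changes from -0.01 to 0.42. The median of the 8 was 0.14 in the wild-type and 0.01 in the p53-deleted background. The calls stand beside 25.7% of all genes in the wild-type and 56.1% in the p53-deleted background. Without wild-type vector A and H-Ras C, 4 of the 8 were called higher and 2 lower in the wild-type background, beside 57.9% of all genes.

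Among 12 tested regulators of class I transcription, 3 fell and none rose in the wild-type background, and 3 rose and 2 fell in the p53-deleted one, with medians of -0.05 and -0.14. Of all genes tested, 25.7% were called in the former background and 56.1% in the latter. IRF1, an interferon-induced activator that binds response elements, was at 620.4, 552 and 561 normalized counts in the wild-type vector libraries and at 204, 170.1 and 239.6 with H-Ras. It was at 435, 357 and 514 and 196, 199.8 and 198 in the p53-deleted vector and H-Ras libraries. H-Ras libraries were below vector libraries throughout, and IRF1 fell in both backgrounds (log2 fold change -1.50 ± 0.15, adjusted p = 0.00039 and -1.11 ± 0.13, adjusted p = 2.5e-05). IRF2, which binds the same elements, fell in the wild-type background (-0.69 ± 0.14, adjusted p = 0.0099), and NFKB1, the p50 precursor of NF-kappaB, fell in both (-0.45 ± 0.13, adjusted p = 0.045 and -0.62 ± 0.08, adjusted p = 5.3e-05). RFX5 and RFXANK, parts of the complex that binds class I and class II promoters, rose in the p53-deleted background (0.85 ± 0.10, adjusted p = 3e-05 and 0.55 ± 0.12, adjusted p = 0.002), and ATF1 did so too (0.27 ± 0.10, adjusted p = 0.041). The class I activator NLRC5 had log2 fold changes of 0.39 ± 0.14, adjusted p = 0.079 and -0.24 ± 0.14, adjusted p = 0.17, whose difference passed (-0.63 ± 0.19, adjusted p = 0.041). IRF9 was too low to be tested. With wild-type vector A and H-Ras C left out, 2 regulators were called higher and 3 lower in the wild-type background, with IRF1 at -1.57 ± 0.11, adjusted p = 1.9e-08. In that fit 57.9% of all genes tested were called.

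**Figure D4:**
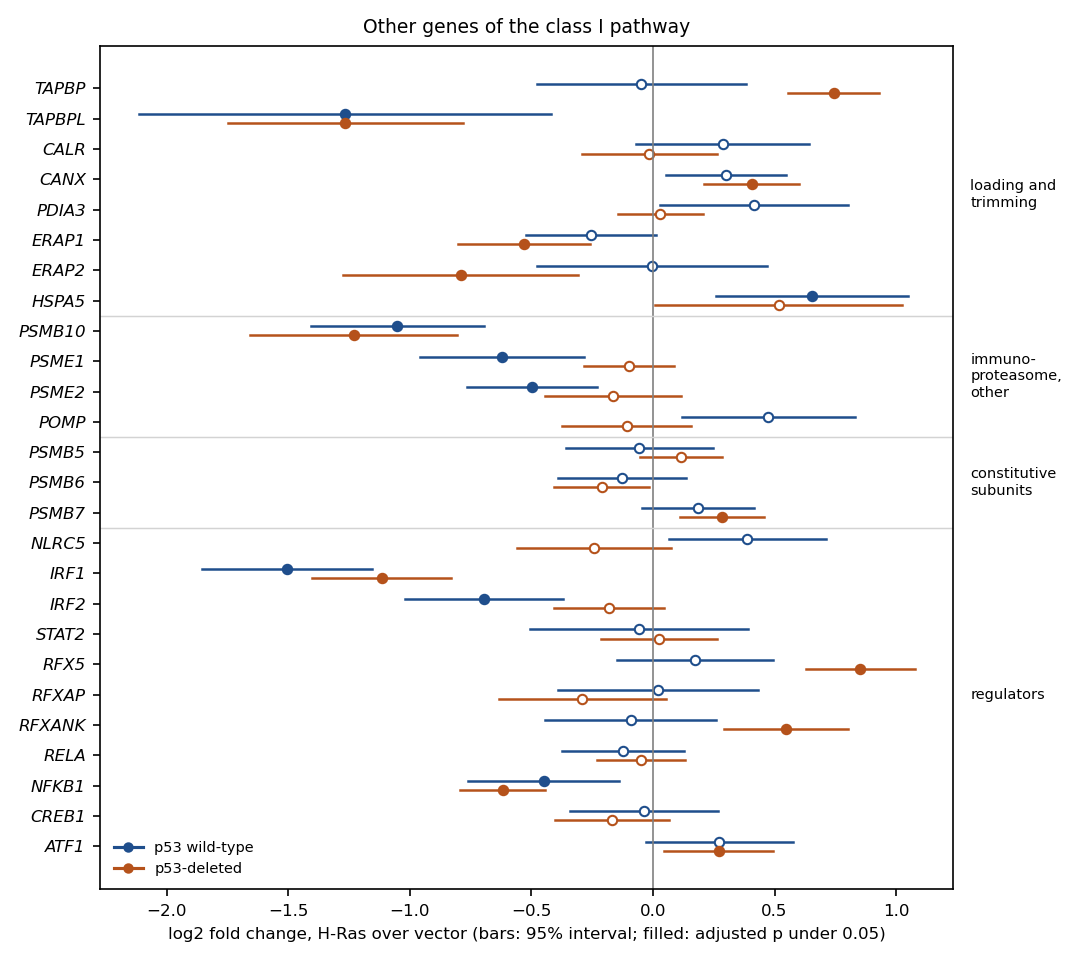
Log2 fold change of H-Ras over vector with 95% intervals for genes of peptide loading and trimming, other inducible and constitutive proteasome subunits, and 11 regulators of class I transcription, in the p53 wild-type and p53-deleted backgrounds; filled points had an adjusted p under 0.05 in limma. TAPBPL, PSMB10, IRF1 and NFKB1 were filled and below 0 in both backgrounds.

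Genes of the interferon gamma receptor pathway and interferon response did not move as a block with H-Ras. Of 6 tested receptor pathway genes, SOCS3, a feedback inhibitor, rose in the wild-type background (0.73 ± 0.17, adjusted p = 0.019) and the phosphatase PTPN2 fell (-0.47 ± 0.12, adjusted p = 0.028). In the p53-deleted background 3 rose and 1 fell, among them the receptor chain IFNGR2 (1.21 ± 0.10, adjusted p = 2.2e-06), PTPN2 (-0.68 ± 0.13, adjusted p = 0.0008) and SOCS3 (0.42 ± 0.16, adjusted p = 0.046). Of 14 tested interferon response genes, 1 rose and 2 fell in the wild-type background, with OAS3 (-1.44 ± 0.24, adjusted p = 0.0046) and TRIM22 (-0.79 ± 0.11, adjusted p = 0.0017) as the falls. In the p53-deleted background 7 rose and 5 fell, and those with the largest changes at a mean of at least 100 were OAS3 (-1.69 ± 0.17, adjusted p = 6.8e-06), GBP1 (-1.61 ± 0.23, adjusted p = 0.00011) and GBP2 (1.35 ± 0.13, adjusted p = 4.5e-06). The medians were 0.07 and 0.50 on the log2 scale. BST2 and IFITM1 were under 10 in every p53-deleted vector library and passed the filter there only through the H-Ras libraries. In the wild-type background IFITM1 passed only through the vector libraries. The direction of these genes was thus set by the filter, and the counts and medians that hold them are no evidence about the list. Beside the counts of both lists, 25.7% of all genes tested were called in the wild-type background. In the p53-deleted background 56.1% were, 27.8% higher and 28.3% lower. In the wild-type background without vector A and H-Ras C, 5 of 13 response genes were called higher and 4 lower, and of 6 receptor pathway genes 5 were higher and 1 lower. In that fit 57.9% of all genes tested were called. Between the vector lines, 9 of 14 response genes were called lower in the p53-deleted line and 1 higher, with a median of -0.98. Of all genes tested, 16.8% were called lower and 16.2% higher there. Among these response genes, TRIM22 went from 659 ± 40.3 normalized counts in the wild-type to 36.8 ± 4.83 in the p53-deleted line (-4.13 ± 0.18, adjusted p = 1.1e-08).

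The genes whose log2 levels over the 12 libraries were most like those of 3 members were ranked by Pearson correlation among 8900 (HLA-B and B2M) or 8901 (PSMB9) genes with a mean of at least 100 normalized counts, as a description with no test, since the 12 libraries form 4 groups. For PSMB9 the first 3 were DTX2 (r = 0.977), MYC (0.971) and TIAM1 (0.965), with PSMB8 at rank 75 (0.88) and TAP1 at rank 87 (0.873). HLA-B was most like NNT (0.976), GNAS (0.972) and C20orf112 (0.963), and its correlation with PSMB8 was -0.73. B2M was most like GNG12 (0.959), SGMS2 (0.942) and CCDC53 (0.942), and among members its highest value was with HLA-E (0.697).

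Reads of these genes can be shared with close relatives. Of the 31-base stretches in the transcripts of HLA-C, 19.3% also occur in another gene, HLA-B among them, and the share was 15.1% for HLA-B, 11.5% for HLA-E and 4.04% for HLA-F. For TAP2 it was 33.0%, all of it with a read-through gene that had 0 reads, and for PSMB9 it was 12.3%, with PSMB8-AS1, which had 47 reads in all. The read-through gene shares 2064 exon bases with TAP2 on the same strand. Whether reads that fit both were left out of the count of TAP2 was not tested. B2M and PSMB8 shared none and TAP1 1.69%. PSMB8 and PSMB9 overlap by 139 exon bases on opposite strands, and whether counting used the strand was not given in the sources used here. HLA genes vary between people, and how far the alleles of MCF10A match the reference used for counting was not tested.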

How the data were processed

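Gene expression was measured by RNA sequencing of 12 MCF10A libraries. Per the labels' protocols, TRIzol RNA was taken through oligo-dT beads into TruSeq libraries. The submitters' processing notes name HTSeq, TopHat, SAMtools, Trimmomatic and FastQC and the build GRCh37. Tool versions, annotation and strand setting are not given in the sources used here. From its values, the deposited signal is a group mean of size-factor-normalized read counts, scaled separately in 2 tables. Each table also holds a deposited fold change, the ratio of the group means, with a deposited p-value and its adjusted value.

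Whole reads of the 3 libraries of a group were solved from each mean, which is printed to many digits. A unique solution was found for 99.8% to 99.98% of IDs above 0 per group and for all 9 members. Of 2000 shifted means per group 0 were solved, and of 1000 simulated ones 999 to 1000 were solved correctly and 0 wrongly. Size factors recomputed from the reads matched within 0.036%. SDs therefore rest on solved and not on deposited values.

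Comparisons used limma 3.58.1 in R 4.3.3, with its trend option, on log2(normalized count + 1), on genes with at least 10 in at least 3 libraries. Each background was fitted on its 6 libraries, and the other contrasts on 12 with common median-of-ratios factors, on whose scale levels are compared across backgrounds. The fit was checked on simulated data. Reads were solved in Python 3.11.15 (NumPy 2.4.6) and figures drawn with Matplotlib 3.10.9. Alternatives were other pseudocounts and filters, voom weights, scaling by total reads, leaving libraries out and fitting all libraries together. Replicates could not be paired, since columns carry no replicate number.

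Coordinates are from GENCODE 29 (GRCh38), and promoter sequences are RefSeq's (GRCh38.p14). HLA-E had no promoter entry. All genes are named from the lists of peptide loading and proteasome subunits, and from every other list up to 3 called genes with the largest change and a mean of at least 100 per H-Ras comparison. Other genes named were chosen after their values were seen. Some genes of the lists are counted in them but not reported singly here. The members and lists were chosen with earlier results of these data known.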

Additional observations from a re-analysis of the deposited data

Results flagged for a closer look

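The H-Ras effect on PSMB9 differed between the backgrounds by 1.01 ± 0.30 on the log2 scale (p53-deleted minus wild-type, adjusted p = 0.04 in limma over 12 libraries), which was the difference between groups that drew attention. The effect was -1.28 ± 0.16 in the wild-type and -0.28 ± 0.23 in the p53-deleted lines, and all 3 H-Ras libraries were below all 3 vector libraries in the former, against 2 of 3 in the latter. The difference ranged from 0.79 to 1.27 over 19 alternatives and lost its call in 12 of them.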

How the results depend on the processing

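Of 756 repeats for single members, 671 kept direction and call, 50 lost the call, 8 gained one and 27 changed sign, 26 of these with no call before or after. The exception was HLA-E in the wild-type background, called at 0.31 without vector A and H-Ras C. Leaving out single libraries gave values on both sides of 0 for the H-Ras effect on HLA-E in the wild-type background (-0.16 to 0.14) and on HLA-B (-0.13 to 0.081) and B2M (-0.053 to 0.11) in the p53-deleted one. It did so for the difference between backgrounds of HLA-C (-0.058 to 0.12) and HLA-F (-0.056 to 0.41), between vector lines for HLA-F (-0.43 to 0.035) and TAP2 (-0.18 to 0.069), and between H-Ras lines for HLA-F (-0.26 to 0.18) and TAP1 (-0.12 to 0.016). Scaling by total reads changed the sign of HLA-B in the p53-deleted background (0.0014) and of HLA-F (0.040) and TAP1 (0.022) between H-Ras lines. Without vector A and H-Ras C the difference between backgrounds was -0.051 for HLA-C, -0.027 for HLA-E and -0.30 for HLA-F, and HLA-F between vector lines was at 0.035. In the wild-type background 6803 genes and 7 members were called without these libraries, against 3196 and 4, and a fit on 12 libraries called 4840 genes. Leaving out single libraries gave 1699 to 4122 genes and 3 to 4 members in the wild-type background, and 5843 to 6871 genes and 2 to 3 members, against 7159 and 4, in the p53-deleted one, where the fit on 12 libraries called 2 members. For the difference between backgrounds it gave 1457 to 2218 genes (2244 with all libraries) and 0 to 1 members. Members called there were 0 without the filter on low counts and 2 with scaling by total reads, when TAP1 was added (adjusted p = 0.044). Between H-Ras lines, leaving out single libraries gave 3818 to 5420 genes and 1 to 2 members, and both the fit without the filter and scaling by total reads called 1. Between vector lines it gave 3401 to 4956 genes and 5 to 6 members. In the wild-type background the calls of PSMB9, PSMB8 and TAP1 held in 14 of 14 alternatives, and in the p53-deleted background that of TAP2 held in 13 of 13. HLA-F was called in the wild-type background by the fit on 12 libraries (adjusted p = 0.038), and HLA-E between H-Ras lines without wild-type H-Ras C. The causes of these changes were not tested. No paired analysis was possible because the columns carry no replicate numbers. At these depths HLA-F and PSMB9 rest on 30 to 124 and 39 to 237 reads per library.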

Other observations

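Most class II presentation genes were low, and CTSS had the highest mean of the list in each group. In the wild-type background the 4 of 9 that could be tested rose with H-Ras: CTSS, the cathepsin S protease, from 38.2 ± 0.340 to 116 ± 16.1 normalized counts (1.57 ± 0.17, adjusted p = 0.00064), the invariant chain CD74 from 5.73 ± 3.44 to 58.2 ± 24.3 (3.19 ± 0.53, adjusted p = 0.0043), the regulator CIITA from 14.2 ± 2.78 to 36.7 ± 1.17 (1.33 ± 0.24, adjusted p = 0.0063) and HLA-DMA from 4.67 ± 1.32 to 14.9 ± 3.68 (1.49 ± 0.35, adjusted p = 0.018). Over all genes tested in that background, 13.0% were called higher. CD74 and HLA-DMA were under 10 in every vector library and passed the filter only through the H-Ras libraries. Their direction was thus set by the filter, and the count of rises is no evidence about the list. Among the 5 too low to test there, the alpha chain HLA-DRA gave 0, 0 and 1 reads with vector and 9, 10 and 10 with H-Ras, and the alpha chain HLA-DPA1 gave 1, 0 and 0 and 13, 11 and 7. HLA-DRB1, HLA-DPB1 and HLA-DMB were under 3 normalized counts in group mean in every group. In the p53-deleted background only CTSS could be tested, and it fell from 47.5 ± 8.04 to 11.2 ± 2.61 (-1.99 ± 0.25, adjusted p = 4.7e-05). The effects on CTSS differed between backgrounds (-3.56 ± 0.29, adjusted p = 1.3e-05). Without wild-type vector A and H-Ras C, both of the 2 genes that could be tested were called higher, where 57.9% of all genes were called. CD74, CIITA, the HLA class II chains and, below, PDCD1LG2 fall outside the rule for named genes and were chosen after their values were seen.

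Among ligands read by natural killer and T cells, 3 of 10 rose and 1 fell with H-Ras in the wild-type background, and 3 of 11 rose and 2 fell in the p53-deleted one. Over all genes tested, 25.7% were called in the wild-type and 56.1% in the p53-deleted background. In the wild-type background without vector A and H-Ras C, 6 of 9 were called higher and 1 lower, beside 57.9% of all genes called. The NKG2D ligand ULBP2 rose in both (1.03 ± 0.19, adjusted p = 0.0078 and 0.74 ± 0.17, adjusted p = 0.0029), and MICB, another NKG2D ligand, fell in both (-0.58 ± 0.17, adjusted p = 0.042 and -0.39 ± 0.09, adjusted p = 0.0048). RAET1E rose in the wild-type background (0.69 ± 0.14, adjusted p = 0.0096), and MICA rose in the p53-deleted one from 363 ± 23.5 to 565 ± 17.8 (0.64 ± 0.09, adjusted p = 0.00011). The PD-1 ligand PDCD1LG2 rose in the wild-type background from 31.9 ± 7.59 to 90.0 ± 12.3 (1.49 ± 0.24, adjusted p = 0.0037) and did not pass in the p53-deleted one (-0.65 ± 0.34, adjusted p = 0.13), and the effects differed (-2.13 ± 0.46, adjusted p = 0.008).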
